A study of Mus musculus with 12 samples.

Results

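Complement is a cascade of blood and tissue proteins that tags cells and debris for removal, and 7 of its genes are described here in the developing mouse retina: the 3 chains of C1q (C1QA, C1QB and C1QC), the cascade components C4B and C3, and the inhibitors SERPING1 and CD59A. They were chosen by symbol, with no measured value in the rule, and are 7 of the 21408 genes in the table. A further list held 56 complement genes with these 7 among them, of which 46 had a row. C1q is built from equal numbers of its 3 chains and starts the classical route of the cascade by binding to a surface. It then activates proteases that cut C4 and C2 to make an enzyme that cuts C3, and C3 fragments mark the surface for uptake by phagocytes or lead on to the membrane attack complex. Serping1 (C1 inhibitor) blocks the proteases bound to C1q, and Cd59a sits on the cell membrane and blocks the last step, pore formation; in retina, microglia are a known source of C1q.

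The libraries came from C57B6 pups in 4 conditions. NORM pups stayed in room air with their biological mother and their retinas were taken at day 14 (P14) or 17 (P17) after birth. OIR pups, a model of oxygen-induced retinopathy, breathed 75% oxygen between postnatal days 7 and 12 with a foster mother, went back to room air, and were sampled on the same days, so that oxygen and fostering cannot be told apart. Retinas were used whole (7 libraries) or labelled as rod-depleted (5 libraries). At P14 there were 1 NORM and 2 OIR rod-depleted libraries and 1 NORM and 3 OIR whole-retina libraries. At P17 there were 1 NORM and 1 OIR rod-depleted libraries and 1 NORM and 2 OIR whole-retina libraries. The labels state a run for all but the 2 P17 OIR whole-retina libraries. No stated run held both days, so day and run cannot be told apart. At P17 no stated run held both conditions either. The labels name no animals, no transgene and no cell line, and do not say how many pups a library holds. The p-values thus measure the spread between the libraries used for a class, at most 12, which may be technical.

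Each cell was sequenced by Drop-seq, which captures single cells with barcoded beads in droplets and counts each RNA molecule once, from its 3′ end, by a unique molecular identifier (UMI). After cells with fewer than 200 detected genes were left out, 24772 of 25472 cells remained, with 569 to 3409 cells and 404572 to 7864609 UMIs per library. The median UMIs per cell ran from 432 in the P17 NORM whole-retina library to 1794.5 in a P17 OIR whole-retina library. Of 24758 distinct barcodes, 14 occurred in 2 libraries. A clustering that left out the complement genes gave 30 clusters, of which 29 were named from marker genes as 13 classes and called, for example, Müller-like. The remaining cluster of 274 cells was led by OPTC and was left unnamed. All levels below are UMIs per 10000 UMIs of a cell, averaged over the cells of a class in a library, and class levels are means ± SD over libraries with at least 20 cells of the class. Levels between classes are a description with no test, because the classes came from the same cells.

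The genes divided among classes in 3 ways. C1Q RNA lay almost wholly in phagocyte-like cells, C4B lay mostly in glia-like cells and SERPING1 in glia-like and pericyte-like cells and the OPTC-led cluster, and CD59A lay mostly in cone-like cells. C3 was low everywhere, with a highest class level of 0.60.

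**Figure D1:**
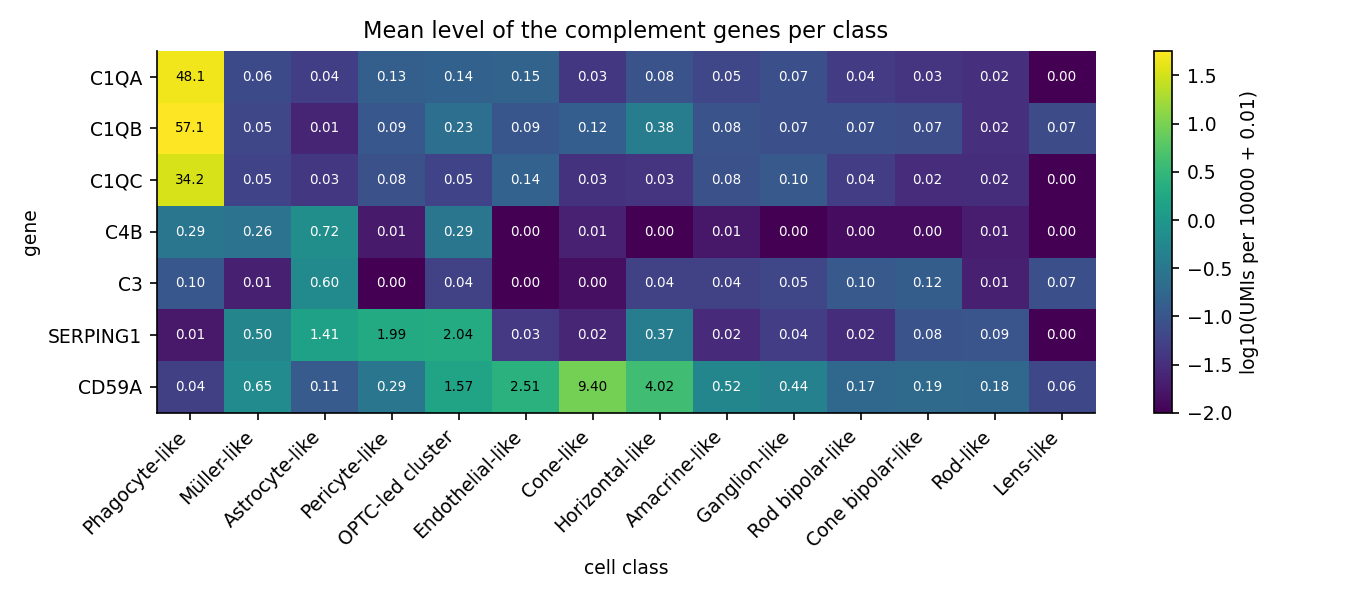
Mean level of each gene (rows) in each cell class (columns), in UMIs per 10000; the number in each field is the mean over libraries with at least 20 cells of the class and the colour is its log10 after adding 0.01. The 3 C1Q genes reach 34.2 to 57.1 in phagocyte-like cells, CD59A reaches 9.40 in cone-like cells, and C4B and C3 stay below 1 in every class.

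**Figure D2:**
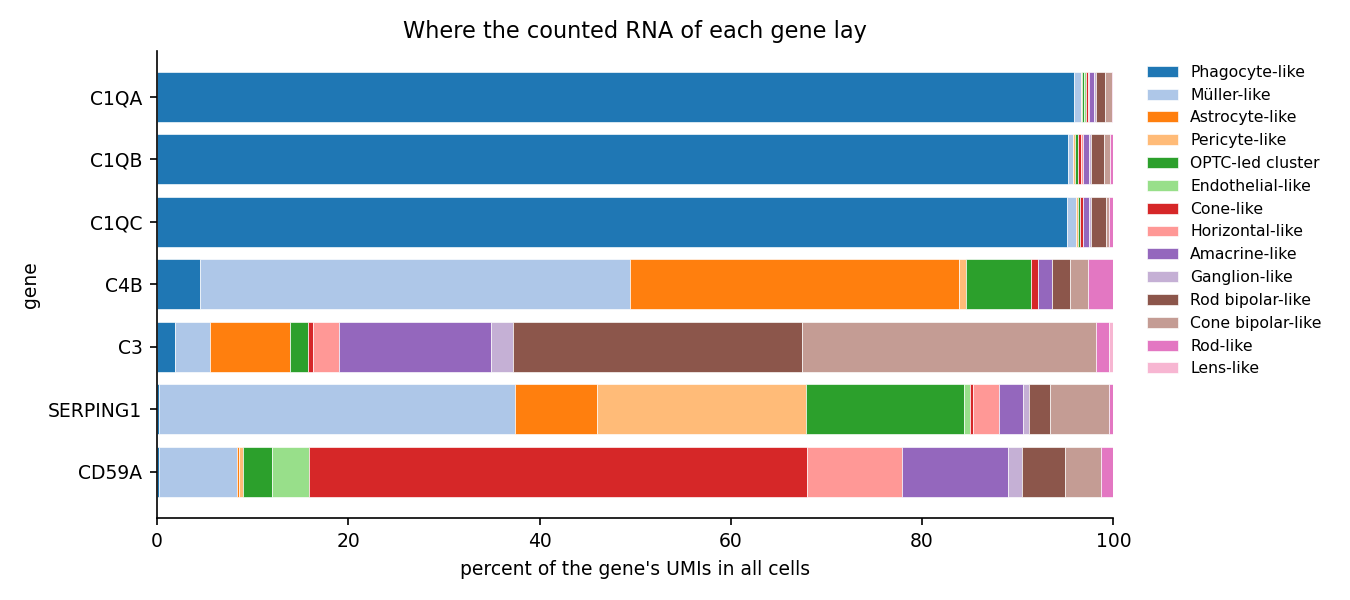
Share of all UMIs of each gene (horizontal axis, percent) that lay in each cell class over the 12 libraries, with 1 bar per gene. Phagocyte-like cells hold 95.4% of the C1Q UMIs, Müller-like and astrocyte-like cells hold 44.9% and 34.5% of the C4B UMIs, and cone-like cells hold 52.1% of the CD59A UMIs.

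The C1q chains are encoded side by side on mouse chromosome 4 (build GRCm38, GENCODE M21, minus strand): C1qa at chr4:136895917-136898803, C1qc at chr4:136889804-136893065 and C1qb at chr4:136880129-136886187. Gaps of 2851 and 3616 bases separate them, and no other annotated gene lies inside the span of 18675 bases. Because the 3 genes had nearly the same pattern over cells, the sequence just before their starts is shown for the genes with an entry in the RefSeq promoter table (build GRCm38.p6), which held 4 of the 7 genes: C1qb, C1qc, C3 and Cd59a. The letters GAGGAA, the core of sites bound by the ETS factor PU.1 of myeloid cells, are in capitals, or TTCCTC where the match is on the opposite strand. Cd59a is shown beside the C1q genes because it holds the same letters and was highest in another class. Each run is written 5′ to 3′ on the strand of its gene: C1qb is chr4:136886201-136886450, C1qc is chr4:136893066-136893164 (shortened to the bases before the gene as GENCODE draws it, since the RefSeq start lies inside that gene) and Cd59a is chr2:104095551-104095800.
C1qb: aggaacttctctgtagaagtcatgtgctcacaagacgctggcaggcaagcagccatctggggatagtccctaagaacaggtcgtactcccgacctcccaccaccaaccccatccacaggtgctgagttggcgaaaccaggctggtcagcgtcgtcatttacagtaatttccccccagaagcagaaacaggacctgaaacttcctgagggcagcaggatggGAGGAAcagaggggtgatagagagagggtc
C1qc: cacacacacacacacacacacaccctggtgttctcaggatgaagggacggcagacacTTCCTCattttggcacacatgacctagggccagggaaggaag
Cd59a: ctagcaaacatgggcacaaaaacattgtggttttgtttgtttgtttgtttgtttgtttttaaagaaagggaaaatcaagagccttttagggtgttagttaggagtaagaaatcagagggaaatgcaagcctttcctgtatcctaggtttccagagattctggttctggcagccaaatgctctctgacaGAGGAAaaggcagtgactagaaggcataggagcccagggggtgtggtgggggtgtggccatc

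Positions are counted back from the RefSeq start, and for C1qc another 151 bases lie between the run shown and that start. The match begins 30 bases before the RefSeq start of C1qb, 193 bases before that of C1qc and 62 bases before that of Cd59a, and these letters were not found in the 250 bases before C3. On both strands, 23.3% of 32851 promoter windows of 250 bases hold GAGGAA, so a match is a description of the letters and not a site. The other patterns searched were TGANTCA (AP-1, in 6.75% of windows), TTCNNNGAA (STAT, 7.02%), the interferon-stimulated response element (2.98%) and ACGTG (the hypoxia response core, 16.6%). The only match among the 4 genes was the interferon-stimulated response element on the opposite strand of Cd59a, 187 bases before its start and apart from the capitals.

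Phagocyte-like cells were 408 of the cells (1.65%) and held 8850 of the 9272 C1Q UMIs (95.4%), with 89.3 to 98.5% in single libraries. Their share was 95.9% of C1QA (95% exact binomial interval 95.1 to 96.5%), 95.3% of C1QB (94.6 to 95.9%) and 95.2% of C1QC (94.2 to 96.0%). Intervals cover counting error only. The class level was 48.1 ± 6.57 for C1QA, 57.1 ± 7.65 for C1QB and 34.2 ± 11 for C1QC (SD, n = 7 libraries). A UMI of any chain was found in 358 of 408 cells (87.7%), and all 3 chains were found in 288 (70.6%). In rod-like cells, which should lack the genes, 25 of 5174 cells (0.483%) had a C1Q UMI. With each cell thinned to 300 UMIs the shares were 82.8% and 0.266%, and the median depths before thinning were 1062 and 688 UMIs.

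Outside the phagocyte-like class the 3 genes together were at 0.0175 to 0.543 per 10000 in single libraries. The proportions of the chains there were close to those within the class: C1QA, C1QB and C1QC made up 34.0%, 41.9% and 24.1% of C1Q UMIs in phagocyte-like cells and 30.8%, 43.6% and 25.6% of the 422 UMIs in all other cells. Each interval from the other cells (26.4 to 35.5%, 38.8 to 48.5% and 21.5 to 30%) contains the phagocyte-like share. The neuron classes ranged from 0.0233 to 0.0829 for C1QA, 0.0225 to 0.378 for C1QB and 0.0196 to 0.104 for C1QC. Müller-like cells, at 0.0587, 0.0522 and 0.047, lay inside these ranges. Pericyte-like cells, at 0.125, 0.0949 and 0.0752, lay above the neuron classes for C1QA alone, on 3 UMIs. Endothelial-like cells lay above them for C1QA (0.147, on 6 UMIs) and C1QC (0.142, on 1 UMI). The OPTC-led cluster lay above them for C1QA (0.138, on 6 UMIs). Where the C1Q UMIs outside the phagocyte-like class came from was not tested.

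A second clustering split the phagocyte-like class into 7 sets, and C1Q levels differed among them. A set of 176 cells led by CD34, PARVG and SALL1, with the microglial genes P2RY12 and TMEM119 among its leaders, had 59.9 C1QA, 72.5 C1QB and 44.0 C1QC. A set of 41 cells led by ICAM1, TNFSF9 and TNF had similar levels of 62.8, 70.5 and 39.6, and a macrophage-like set of 46 cells led by PF4 and MRC1, marker genes of perivascular and border macrophages, had 53.0, 47.5 and 33.2. All 47 cells of a set led by MMP12, LGALS3 and HILPDA came from OIR libraries, and their levels were 37.2, 55.7 and 21.7.

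Low C1Q levels were found in 38 cells led by the antigen-presentation genes H2-EB1 and H2-AA and an immunoglobulin gene (9.59 C1QA, 14.7 C1QB and 4.44 C1QC). Another 2 sets, left unnamed, were led by genes of neurons: 36 cells led by the rod genes RP1 and NRL (38.2, 48.0 and 30.2) and 24 cells led by the bipolar genes CAR8 and PCP2 (8.66, 13.5 and 4.28). As means over cells, all 3 chains were thus lower in the antigen-presentation set and the bipolar-gene set than in the other 5 sets. Over the 3 libraries with at least 5 cells of the antigen-presentation set, C1QB ran from 0 to 50.3. It thereby overlapped the libraries of the MMP12-led set (46.6 to 82.0), while C1QA reached 27.4 and C1QC 5.89. Each set held cells of 7 to 12 libraries and was clustered on the same cells, so their differences are a description.

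Between oxygen conditions the C1Q genes did not pass the test in phagocyte-like cells. C1QA was at 62.6 (P14) and 46.1 (P17) in the NORM libraries, all rod-depleted. In OIR it was at 45.5 and 47.9 (P14 rod-depleted), 46.9 (P17 rod-depleted), and 43.3 and 44.6 (P17 whole retina). The P14 NORM library was the highest and the other 6 lay within a narrow band.

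C1QB was at 67.7 and 58.4 in NORM. It was at 62.0 and 50.0 (P14 rod-depleted), 61.5 (P17 rod-depleted), 45.4 and 54.8 (P17 whole retina) in OIR. The groups overlapped. C1QC was at 27.9 and 23.5 in NORM and at 57.4, 31.0, 35.1, 29.7 and 34.8 in the same order in OIR. All 5 OIR libraries lay above both NORM libraries, with the first P14 library far above the rest. How many of all genes were separated in this way was not counted, and the C1QC difference did not pass the test.

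**Figure D3:**
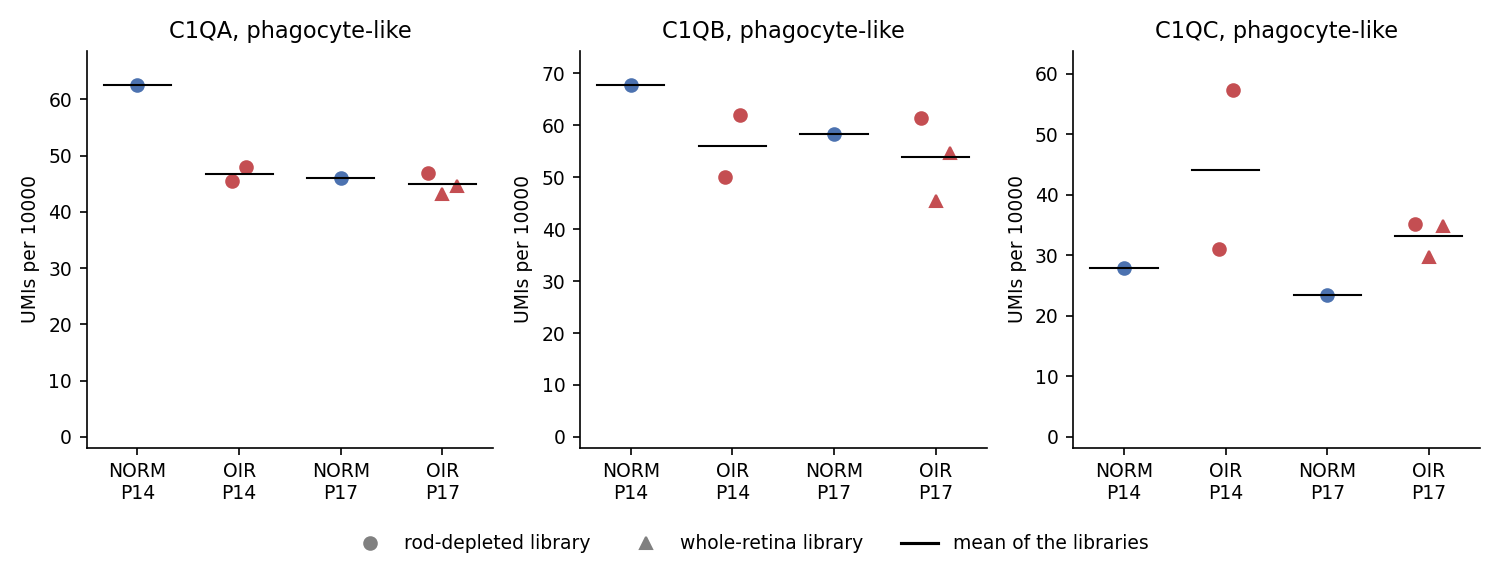
Level of C1QA, C1QB and C1QC in phagocyte-like cells (vertical axis, UMIs per 10000) for each of the 7 libraries with at least 20 such cells, by condition and day; circles are rod-depleted and triangles whole-retina libraries, blue is NORM, red is OIR, and lines are means of the libraries. C1QC is at 23.5 to 27.9 in the NORM and 29.7 to 57.4 in the OIR libraries, while C1QB overlaps between them. No difference between the conditions passed the test.

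Across all genes of a class, OIR was set against NORM with limma on log2(level + 0.2), with day and fraction as further terms and Benjamini-Hochberg adjustment at 0.05. All differences below are on that scale, which understates changes of low genes. Residual degrees of freedom were 8 in Müller-like cells (12 libraries) and 3 in phagocyte-like cells (7 libraries). They were 2 in pericyte-like cells and in the OPTC-led cluster (5 libraries each). In phagocyte-like cells 9 of 6862 genes passed (0.131%), and 0 of the 4 genes tested there did. The difference OIR minus NORM was −0.23 ± 0.25 (SE) for C1QA (limma adjusted p = 0.952), −0.13 ± 0.24 for C1QB (adjusted p = 0.977) and 0.59 ± 0.27 for C1QC (adjusted p = 0.815). Of the 4, C1QC alone had an unadjusted limma p below 0.05 (0.0335), and 407 of the 6862 genes did. Without the first P14 OIR rod-depleted library the C1QC difference was 0.36. Of the 2 runs that held both conditions, only the rod-depleted one had at least 20 phagocyte-like cells in each library, and between its P14 NORM library and the second P14 OIR library the differences were −0.38, −0.44 and 0.15.

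From P14 to P17, 0.0874% of genes passed in phagocyte-like cells and 0 of the 4 genes did, with differences of −0.19 ± 0.25 for C1QA, −0.01 ± 0.24 for C1QB and −0.26 ± 0.27 for C1QC. The test of whether the oxygen difference changed between the days called 0.0146% of genes and none of the 4 (limma, lowest unadjusted p = 0.364). Microglial markers summed to 365 to 387 per 10000 in NORM and 256 to 320 in OIR phagocyte-like cells, and none of the 14 was at 0. Rod markers summed to 4.15 to 10.5 and 2.18 to 123. Their part in the C1Q levels was not tested. In an alternative chosen after seeing the data, the sets led by genes of neurons were left out. C1QC was then at 29.1 and 27.8 in NORM and at 62.9, 32.4 and 36.6 in OIR rod-depleted libraries, without overlap. The P17 OIR whole-retina libraries, at 29.7 and 34.8 with all sets, had no value in this alternative. It therefore does not show whether all OIR libraries stayed above NORM.

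C4B encodes complement C4, whose cleavage product binds covalently to the tagged surface (C4b, chr17:34728380-34743882, minus strand). It had 267 UMIs in all. Müller-like cells, the radial glia of the retina, held 120 of them (44.9%), and astrocyte-like cells held 92 (34.5%) while making up 0.678% of the cells. The level was 0.72 ± 1.07 in astrocyte-like cells (SD, n = 3), 0.29 ± 0.33 in phagocyte-like cells (n = 7), 0.29 ± 0.34 in the OPTC-led cluster (n = 5) and 0.26 ± 0.24 in Müller-like cells (n = 12). These 4 levels do not differ beyond their spread over libraries. Of the 92 astrocyte-like UMIs, however, the libraries behind that mean held only 25, all from OIR. Per 10000 summed UMIs of all cells of a class, C4B was at 1.56 in astrocyte-like cells (Poisson interval 1.26 to 1.91). It was at 0.275 (0.228 to 0.329) in Müller-like cells, 0.198 (0.102 to 0.345) in phagocyte-like cells and 0.278 (0.165 to 0.439) in the OPTC-led cluster. These intervals cover counting error only. All neuron classes, pericyte-like and endothelial-like cells were at 0.012 or less. The last 600 bases of the C4b transcript share 38.3% of their 50-base words with the neighbouring copy C4a, so reads of the 2 genes could have been mixed; C4A had 49 UMIs.

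In Müller-like cells 117 of 120 C4B UMIs came from OIR libraries, which held 63.2% of the cells. Depth differed between libraries, and per 10000 summed UMIs C4B was at 0 (P14) and 0.0819 (P17) in NORM and 0.268 and 0.497 in OIR. C4B was at 0 in both P14 NORM libraries, with 0 UMIs in 749 cells, and at 0.0798 (rod-depleted) and 0.255 (whole retina) in the P17 NORM libraries. The 8 OIR libraries ranged from 0.0997 to 0.826 with a median of 0.261. Of the OIR libraries, 6 of 8 lay above all 4 NORM libraries. The 2 other OIR libraries lay below the P17 NORM whole-retina library. Summed over libraries, 1127 NORM cells held 3 C4B UMIs.

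The C4B difference in Müller-like cells was 0.94 ± 0.28 (95% interval 0.34 to 1.54), with means of 0.0836 ± 0.12 in NORM (SD, n = 4) and 0.348 ± 0.24 in OIR (n = 8). It did not pass the adjustment (limma, unadjusted p = 0.00383, adjusted p = 0.237). In this class 16 of 7388 genes passed (0.217%), 0 of the 3 complement genes tested did, and 892 genes had an unadjusted p below 0.05. Over 27 other settings the C4B difference was 0.30 to 1.84, always higher in OIR, with adjusted p from 0.0547 to 0.551. In the 2 runs that held both conditions it was 0.88 (rod-depleted) and 1.19 (whole retina). With the stated run as a block in the model, an alternative chosen after seeing the data that used 10 libraries of 6 runs, it was 1.03 ± 0.43 (limma adjusted p = 0.425). The oxygen difference at P17 minus that at P14 was −0.37 (adjusted p = 0.787); that comparison called 0.0677% of genes in the class and 0 of 3 complement genes.

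Both Müller-like clusters showed the same order. In the first, C4B was at 0 in 520 NORM cells and 0.34 in 1412 OIR cells, and in the other at 0.0629 in 607 NORM cells and 0.264 in 520 OIR cells. Astrocyte markers in Müller-like cells summed to 7.90 to 21.3 in NORM and 9.21 to 16.4 in OIR libraries, with none of the 10 at 0. Those ranges overlap. From P14 to P17 the C4B difference was 0.59 ± 0.27 (limma adjusted p = 0.372).

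Phagocyte-like cells held 12 C4B UMIs. C4B was at 0 in both NORM libraries and at 0.0853 to 0.811 in the 5 OIR libraries, and the difference was 0.97 ± 0.81 (limma adjusted p = 0.952).

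**Figure D4:**
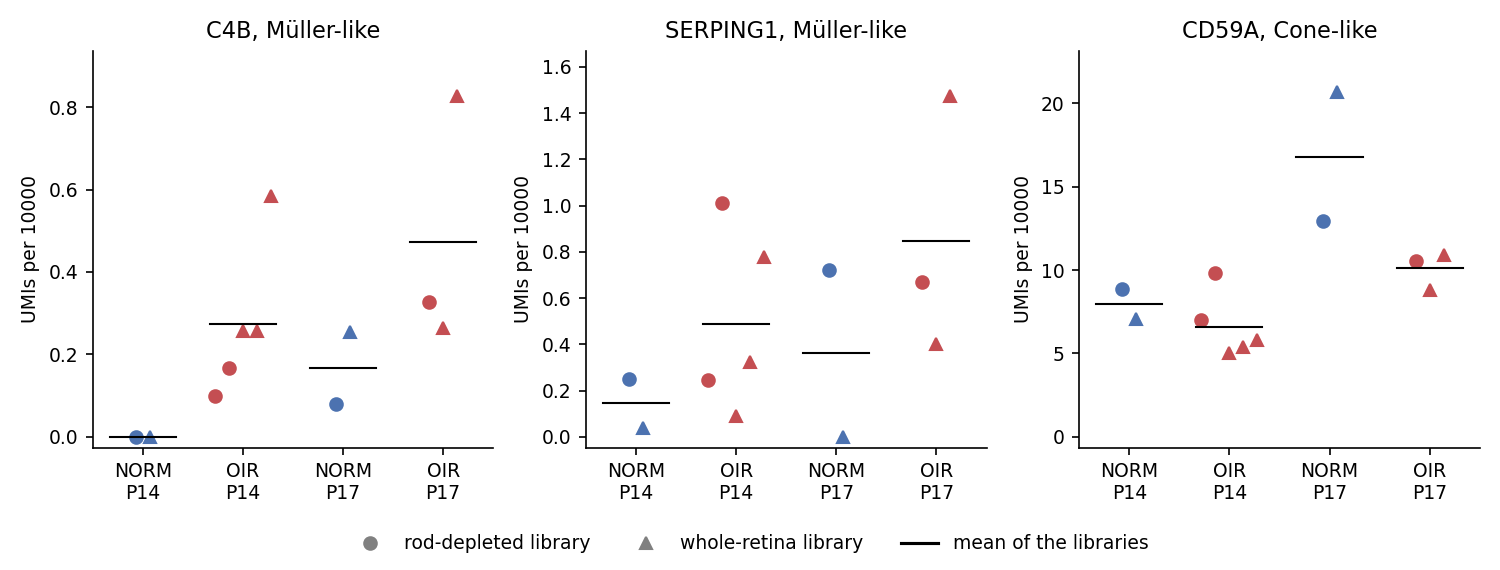
Levels per library (vertical axes, UMIs per 10000) of C4B and SERPING1 in Müller-like cells and CD59A in cone-like cells, by condition and day; circles are rod-depleted and triangles whole-retina libraries, blue is NORM, red is OIR, and lines are means of the libraries. C4B is at 0 in both P14 NORM libraries and at 0.0997 or more in the 8 OIR libraries, and the highest CD59A level, 20.6, is in a P17 NORM library.

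Astrocyte-like cells were few (168) and only 3 libraries held 20 or more, so they could not be tested by the main rule. NORM cells held 0 C4B UMIs in 27 cells at P14 (up to 0.486 per 10000 by a limit of 3 UMIs) and 2 UMIs in 18 cells at P17. OIR cells held 12 UMIs in 63 cells at P14, or 0.608 per 10000 UMIs (95% Poisson interval 0.314 to 1.06), and 78 UMIs in 60 cells at P17, or 2.82 (2.23 to 3.52). In libraries with at least 10 astrocyte-like cells, C4B was at 0 (P14) and 0.263 (P17) in NORM, 0.681 and 0.21 in OIR at P14, and 1.95, 2.30 and 3.75 in OIR at P17. The 3 P17 OIR libraries were the highest.

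With 10 cells as the minimum, the astrocyte-like difference OIR minus NORM was 1.86 ± 0.59 for C4B (limma adjusted p = 0.222, n = 2 and 5, 4 of 5 OIR libraries above both NORM libraries). SERPING1 differed there by 1.92 ± 0.70 (adjusted p = 0.311). In that fit 5 of 6866 genes passed (0.0728%). Astrocyte markers summed to 84.2 in the NORM library with at least 20 cells and to 89.9 to 115 in the OIR libraries, with 2 of 10 markers at 0. Pericyte markers in the same cells summed to 17.5 in NORM and 34.6 to 35.4 in OIR, with 2 of 12 at 0, and their part in the SERPING1 and C4B differences was not tested.

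C3 encodes the component on which all routes of the cascade meet (chr17:57203970-57228136, minus strand). It had 215 UMIs in the 12 libraries. Cone bipolar-like cells held 66, rod bipolar-like cells 65, amacrine-like cells 34, astrocyte-like cells 18 and Müller-like cells 8. The highest class level was 0.60 ± 0.97 in astrocyte-like cells (SD, n = 3), and 16 of the 18 astrocyte-like UMIs came from 1 library, the second P14 OIR rod-depleted one. In the bipolar classes no cell held more than 3 UMIs. C3 stayed below the level of 0.2 that a gene needed to enter the test in every class that could be tested.

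In rod bipolar-like cells C3 was at 0.0383 and 0.057 in the P14 NORM libraries, 0.00738 and 0 in the P17 NORM libraries, and 0 to 0.298 (median 0.171) in the 8 OIR libraries. In cone bipolar-like cells it was at 0 in 3 NORM libraries and 0.127 in the P14 whole-retina one, against 0.0179 to 0.274 (median 0.197) in OIR. In each of these classes 5 of 8 OIR libraries lay above all NORM libraries. OIR cells held 92.3% of the C3 UMIs of rod bipolar-like cells and 90.9% of those of cone bipolar-like cells, while they were 67.0% and 67.4% of the cells. Because depth differed between libraries, rates per 10000 summed UMIs are also given. Rod bipolar-like C3 was at 0.0335 (P14) and 0.00877 (P17) in NORM and 0.178 and 0.0605 in OIR. Cone bipolar-like C3 was at 0.071 and 0 in NORM and 0.227 and 0.0794 in OIR.

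Without the filter on low genes, C3 differed between OIR and NORM by 0.51 ± 0.23 in rod bipolar-like cells (limma adjusted p = 0.526) and 0.58 ± 0.25 in cone bipolar-like cells (adjusted p = 0.694). Neither passed; that fit called 0.0986% and 0.00546% of genes. Of the reactive-glia and interferon lists, A2M, a broad protease inhibitor, rose by 1.64 ± 0.25 in OIR rod bipolar-like cells (adjusted p = 0.0025). H2-K1, a class I histocompatibility gene, rose there by 1.25 ± 0.20 and STAT3 by 1.21 ± 0.21, and H2-K1 rose by 1.58 ± 0.27 in cone bipolar-like cells (adjusted p = 0.0135). The tests in these 2 classes called 0.731% and 0.152% of all genes. These 4 calls also passed without a trend in limma's moderation (adjusted p = 0.0025 to 0.0158).

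SERPING1 encodes C1 inhibitor, a secreted protease inhibitor that stops C1r and C1s (chr2:84765387-84775444, minus strand). It had 806 UMIs: 300 in Müller-like cells (37.2%), 176 in pericyte-like cells (21.8%), 133 in the OPTC-led cluster (16.5%) and 69 in astrocyte-like cells (8.56%). Per cell the order was the OPTC-led cluster at 2.04 ± 0.63 (n = 5), pericyte-like cells at 1.99 ± 1.18 (n = 5), astrocyte-like cells at 1.41 ± 1.49 (n = 3) and Müller-like cells at 0.50 ± 0.44 (n = 12). The SDs over libraries of the first 3 overlapped. Phagocyte-like cells, the source of C1Q, held 2 SERPING1 UMIs in 408 cells.

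In Müller-like cells SERPING1 was at 0.249 and 0.0399 in the P14 NORM libraries and 0.724 and 0 in the P17 ones, and at 0.089 to 1.47 (median 0.535) in the 8 OIR libraries. The groups overlapped, with 3 of 8 OIR libraries above all NORM libraries. The difference was 1.09 ± 0.41 (limma, unadjusted p = 0.0147, adjusted p = 0.330), from means of 0.253 ± 0.33 (n = 4) and 0.624 ± 0.46 (n = 8). In the 2 runs with both conditions it was 1.43 and 0.27. In the first Müller-like cluster SERPING1 was at 0.205 in 520 NORM cells and 0.711 in 1412 OIR cells, and in the other at 0.444 in 607 NORM cells and 0.514 in 520 OIR cells.

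In pericyte-like cells, the mural cells of small vessels, SERPING1 was at 1.28 (P14) and 2.42 (P17) in NORM and at 1.24 and 1.12 (P14) and 3.88 (P17) in OIR, all rod-depleted. Both P17 libraries lay above the 3 P14 libraries. The difference P17 minus P14 was 1.25 ± 0.43 (limma, unadjusted p = 0.0077, adjusted p = 0.567), and OIR minus NORM was 0.21 ± 0.43. In this class 1.06% of genes passed for oxygen and 0.0727% for day, and 0 of the 2 complement genes of the 7 that were tested did.

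In the OPTC-led cluster SERPING1 was at 0.96 and 2.48 in NORM and 2.44, 2.04 and 2.30 in OIR, with no separation. There 0.0423% of genes passed for oxygen and 0.72% for day, and 0 of the 4 genes of the 7 that were tested.

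CD59A encodes a lipid-anchored protein of the cell surface (Cd59a, chr2:104095801-104115354, plus strand), and the end of its transcript shares 0 of 551 words of 50 bases with its copy Cd59b. It had 3279 UMIs. Cone-like cells held 1708 (52.1%) while making up 5.73% of the cells, and horizontal-like cells held 327 (9.97%). The level was 9.40 ± 4.30 in cone-like cells (SD, n = 12), 4.02 ± 1.06 in horizontal-like cells (n = 5), 2.51 ± 1.82 in endothelial-like cells (n = 4), 1.57 ± 0.63 in the OPTC-led cluster (n = 5) and 0.65 ± 0.45 in Müller-like cells (n = 12). The lowest cone-like library (5.01) lay below the highest horizontal-like library (5.76), and the horizontal-like and endothelial-like levels overlapped.

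A CD59A UMI was found in 48.3% of cone-like cells and 0.676% of rod-like cells, and in 22.2% and 0.246% after thinning to 300 UMIs, from median depths of 1016 and 688. The other photoreceptor class thus held little CD59A. Phagocyte-like cells held 6 UMIs in 408 cells.

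In cone-like cells CD59A was at 8.84 (rod-depleted) and 7.04 (whole retina) in the P14 NORM libraries and at 13 and 20.6 in the P17 NORM libraries. It ranged from 5.01 to 10.9 (median 7.90) in the 8 OIR libraries, and 4 of them lay below all NORM libraries. By day it was 6.98 ± 1.80 at P14 (n = 7) and 12.8 ± 4.64 at P17 (n = 5), with overlap. The highest value came from the P17 NORM whole-retina library, the shallowest, with 25 cone-like cells.

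The difference P17 minus P14 of CD59A in cone-like cells was 0.78 ± 0.22 (limma, unadjusted p = 0.0011, adjusted p = 0.872) and OIR minus NORM was −0.45 ± 0.23 (adjusted p = 0.562). Without the shallowest library these were 0.62 and −0.20. For each of these comparisons 0.0145% of genes passed in cone-like cells, CD59A not among them. The change of the oxygen difference between days did not pass either (−0.38 ± 0.45, limma adjusted p = 0.781, with 0% of genes called). With an SE of this size and 1 NORM library per day and fraction, that does not show the absence of a change. In the 2 runs with both conditions OIR minus NORM was −0.33 and −0.28. Rod markers in cone-like cells summed to 99.3 to 246 in NORM and 55.0 to 156 in OIR libraries, with none of 10 at 0, and their part in the CD59A level was not tested.

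In Müller-like cells CD59A was at 0.542 and 0.375 in the P14 and 1.01 and 1.92 in the P17 NORM libraries, and 0.298 to 0.733 (median 0.443) in OIR. The difference OIR minus NORM was −0.49 ± 0.28 (limma adjusted p = 0.490) and P17 minus P14 was 0.62 ± 0.27 (adjusted p = 0.339).

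Over the 10 classes that could be tested, 16 tests of the 7 genes were made for each comparison. For OIR against NORM limma called 0, against 0.226% of all tests, and 3 had an unadjusted p below 0.05: C4B and SERPING1 in Müller-like cells and C1QC in phagocyte-like cells. Of all genes, 892 of 7388 in Müller-like cells and 407 of 6862 in phagocyte-like cells were below 0.05 as well. For P17 against P14 limma called 0, against 0.225%, and 5 had an unadjusted p below 0.05: CD59A in cone-like and Müller-like cells, C4B in Müller-like cells, SERPING1 in pericyte-like cells and C1QB in the OPTC-led cluster. So did 366 of 6908 genes in cone-like, 943 of 7388 in Müller-like and 501 of 6882 in pericyte-like cells. In the OPTC-led cluster 513 of 7087 did. C1QB rested there on few UMIs: at P17, 7 in 1 NORM cell and 4 in 3 OIR cells. Its level there, 0.225, was near the filter of 0.2. The longer list of complement genes gave 84 tests per comparison, of which 1 passed for oxygen (VTN) and 4 for day (CLU and VTN, each in 2 classes). None of these 5 passed when limma's moderation was made without a trend in the mean level, an alternative chosen after seeing the data. Their adjusted p values in that fit are given below.

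Of the 46 listed complement genes with a row, 17 reached a level of 1 in a class. Among the receptors, ITGAM and ITGB2, which together form complement receptor 3, were at 6.67 ± 1.17 and 2.58 ± 0.87 in phagocyte-like cells, and the anaphylatoxin receptors C3AR1 and C5AR1 at 3.23 ± 1.12 and 1.81 ± 0.48 (n = 7). Pericyte-like cells had the highest level of C1S (1.77 ± 0.92), a protease bound to C1q, of the collectin COLEC12 (1.49 ± 0.95) and of the membrane inhibitor CR1L (1.21 ± 0.59). CD93 was highest in endothelial-like cells at 11.1 ± 2.67, and the membrane inhibitor SUSD4 in amacrine-like cells at 1.95 ± 0.95. Of the 7 genes of the membrane attack complex 4 had a row and none reached 1.

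The gene that passed for oxygen was VTN, which encodes vitronectin, an adhesion protein that also holds back the membrane attack complex. VTN in pericyte-like cells was at 26.8 (P14) and 90.3 (P17) in NORM, and at 10.6 and 10.8 (P14) and 28.5 (P17) in OIR. At each day the NORM library lay above the OIR libraries. VTN fell by 1.46 ± 0.24 in OIR (limma adjusted p = 0.00189) and rose by 1.55 ± 0.24 from P14 to P17 (adjusted p = 0.00676). Without a trend the adjusted p was 0.232 and 0.733. It is 1 of the 12 genes by which pericyte-like cells were named.

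The fall of VTN was called under 24 of 25 other settings, the exception being the fit without a trend. It was 1.30 in the rod-depleted run with both conditions. The whole-retina libraries of the other such run had under 20 pericyte-like cells. The 12 pericyte markers summed to 564 to 722 in NORM and 386 to 490 in OIR pericyte-like cells, VTN included. The 5 cycling-cell markers summed to 0 to 0.325 in NORM and 3.05 to 12.2 in OIR. VIM, an intermediate filament gene, rose there by 1.36 ± 0.26 (adjusted p = 0.00754, and 0.254 without a trend). The part of these in the VTN difference was not tested.

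**Figure D5:**
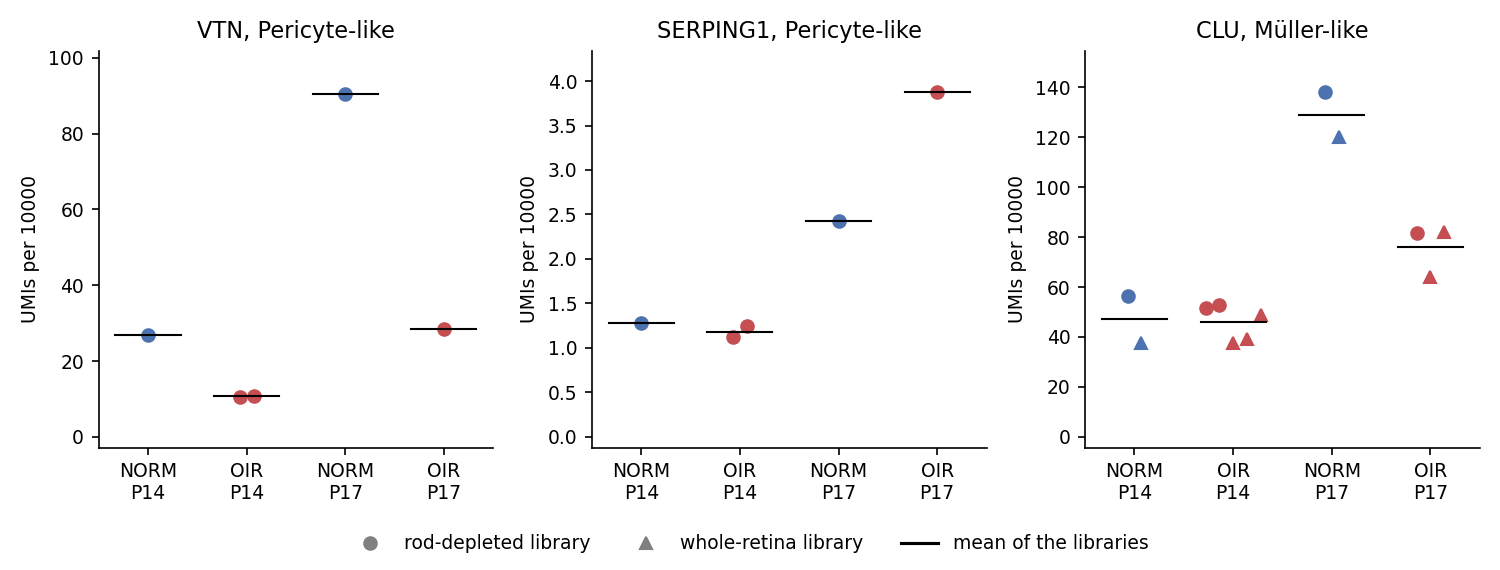
Levels per library (vertical axes, UMIs per 10000) of VTN and SERPING1 in pericyte-like cells and CLU in Müller-like cells, by condition and day; circles are rod-depleted and triangles whole-retina libraries, blue is NORM, red is OIR, and lines are means of the libraries. VTN is at 90.3 in the P17 NORM library and 10.6 to 28.5 in the OIR libraries, and CLU is at 64.2 or more in every P17 library and 56.5 or less at P14.

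CLU, clusterin, a secreted chaperone that also holds back the membrane attack complex, had the highest level of the list: 67.5 ± 32.6 in Müller-like cells (n = 12) and 46.7 ± 10.7 in astrocyte-like cells (n = 3). In Müller-like cells it was at 56.5 and 37.8 in the P14 NORM libraries and at 37.6 to 52.8 in the P14 OIR libraries. At P17 it was at 138 and 120 in NORM and at 81.6, 64.2 and 82.1 in OIR. All 5 P17 libraries lay above all 7 P14 libraries, and CLU rose by 1.0 ± 0.17 from P14 to P17 (limma adjusted p = 0.0188, in a class where 0.541% of genes passed). As for every day difference here, day and run cannot be told apart.

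The CLU call in Müller-like cells held under 19 of 26 other settings. It was lost with a pseudocount of 0.05 (adjusted p = 0.0581), with no filter on low genes (0.235) and without a trend (0.0785). Without the P14 NORM rod-depleted, P17 NORM rod-depleted, second P14 OIR whole-retina or second P17 OIR whole-retina library, the adjusted p was 0.067, 0.051, 0.067 or 0.0572. In the same cells and comparison H2-D1, H2-K1 and IFIT3, all induced by interferon, rose by 1.06 ± 0.23, 1.19 ± 0.26 and 1.30 ± 0.28, and IRF1, an interferon-response factor, fell by 1.90 ± 0.41 (adjusted p = 0.0488 each, and 0.0785 to 0.087 without a trend). In the OPTC-led cluster CLU rose by 1.56 ± 0.28 from P14 to P17, VTN by 2.69 ± 0.63, and IRF1 fell by 2.32 ± 0.50. These 3 did not pass without a trend (adjusted p = 0.621, 0.446 and 0.602). Without the P14 NORM, P17 NORM or P17 OIR rod-depleted library, the adjusted p there was 0.241, 0.269 or 0.0681 for CLU and 0.0661, 0.188 or 0.674 for VTN. VTN also lost its call there with cells thinned to 300 UMIs (difference 3.82, adjusted p = 0.628), and over 24 other settings its difference was 1.63 to 3.82, called in 19.

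Genes outside the complement list with the most similar levels over the 14 classes were named by Pearson correlation of log2(level + 0.2). The classes share libraries and depth, so these are descriptions. PTPN6, a phosphatase of blood cells, came first for C1QA (r = 0.998) and C1QC (r = 0.997), followed for C1QA by A630001G21RIK and LAPTM5 and for C1QC by IRF5 and LAPTM5. FGD2 (r = 0.994), GPR34 and MS4A6C were nearest to C1QB. BC026585 (r = 0.953), TOM1L1 and APOE, the lipid carrier of glia, were nearest to C4B, and LECT1 (r = 0.946), ACE and ARL10 to C3. The class level of C3 exceeded 0.2 in astrocyte-like cells alone, where 16 of its 18 UMIs came from 1 library.

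For SERPING1 the nearest genes were FAT1 (r = 0.940), GPC4 and PLEKHF1. CD59A had no close neighbour: its nearest genes SLC35G1, PARVB and MPP6 had r = 0.781, 0.781 and 0.773. Among the 7 genes themselves r was 0.978 to 0.997 between the C1Q chains, 0.644 between C4B and C3 and 0.545 between C4B and SERPING1. The limit given for C3 holds for its r with C4B as well.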

How the data were processed

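The authors deposited 1 table of natural log values, ln(1 + UMIs of the gene per 10000 UMIs of the cell), per the labels and the values themselves: after exp minus 1 each cell sums to 10000, and dividing by the smallest step of a cell gave whole UMIs for 100% of values above 0 (within 0.05). Per the submitters' processing notes bcl2fastq and STAR 2.4.0 were used with build mm10 (GRCm38); the tool that counted reads over genes is not given in the sources used here. It holds 21408 genes and 31271 cells; 5799 cells in 7 sets of columns matched no library and were not used. The column set taken as the P14 NORM whole-retina library carries the replicate number 8 and was matched by condition, day and fraction.

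Cells with at least 200 genes were clustered with leidenalg 0.10.2 on a graph of shared nearest neighbours, and clusters were named from marker lists. Settings were 2000 variable genes without the complement list, 30 components, 15 neighbours and Leiden resolution 1.0. Doublets were left in; Scrublet called 229 cells, and leaving them out was an alternative. Levels per library and class were tested with limma 3.58.1 (R 4.3.3) on log2(level + 0.2), with oxygen, day and fraction as terms and moderation with a trend in the mean level. The planned wording can also be read as moderation without a trend, so that fit is given beside each call of a named gene. A class needed at least 2 NORM and 2 OIR libraries of 20 cells, and a gene a mean of at least 0.2 and values above 0 in 3 libraries. The code was tested on simulated data. Promoters came from RefSeq (GRCm38.p6). The named genes are all 7 genes, other complement genes that passed or reached a level of 1, the 3 genes most like each, and genes of the reactive-glia and interferon lists that passed. One complement gene that meets this rule is not reported here. The 7 genes and all lists were chosen with earlier results of these data known. Alternatives changed the pseudocount, filters, minimum cells, depth, clustering, doublets, weights and single libraries.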

Additional observations from a re-analysis of the deposited data

Results flagged for a closer look

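Of 11 groups of 4 to 10 libraries examined for a value far from the rest, 1 held one; chance alone gives about 1 in 20 groups. C1QC in phagocyte-like cells was at 57.4 per 10000 in the first P14 OIR rod-depleted library, and the next highest of the 5 OIR libraries was at 35.1. The gap was 0.805 of the range of the group. The same library was at 45.5 for C1QA and 62.0 for C1QB, inside the range of the other OIR libraries for C1QA and just above them for C1QB. It held 38 phagocyte-like cells.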

How the results depend on the processing

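No paired analysis was possible because the NORM groups carry only the replicate number 1, so the groups compared share fewer than 2 numbers. Of 697 values under other settings, 631 kept their direction and their side of the threshold. None of the 7 genes passed under any setting that was run, with a count of 0 for both comparisons. The count of tests of listed complement genes (a gene in a class) that passed for oxygen, 1, became 2 with summed UMIs, 2 with at least 10 cells (C1QBP in pericyte-like cells besides VTN), 0 with at least 50 cells, where pericyte-like cells could not be tested, and 1 to 3 with a library left out. The count of such tests for day, 4, became 1 with at least 50 cells, 2 with at least 500 detected genes, 2 with cells thinned to 300 UMIs, 8 with weights equal to cell numbers, and 1 to 4 with a library left out. It was 1 without either NORM rod-depleted library and 2 without the P17 OIR one. Another 2 settings were chosen after seeing the data. Without a trend in limma's moderation the count was 0 for oxygen and 0 for day. With the stated run as a block, which left out the 2 libraries of no stated run and could be fitted in 7 classes (not in pericyte-like or phagocyte-like cells or the OPTC-led cluster), the count for oxygen was 0 of 49 tests, SERPING1 in Müller-like cells was 0.85 (adjusted p = 0.543), CD59A in cone-like cells was −0.30 (0.721) and CD59A in Müller-like cells was 0.11 (0.961). The differences that changed sign were all of genes that did not pass. For oxygen SERPING1 in pericyte-like cells was −0.092 with summed UMIs and −0.17 in the rod-depleted pair of 1 run, and CD59A in Müller-like cells was 0.33 in that pair. For day C1QA, C1QB and C1QC in phagocyte-like cells were 0.16, 0.11 and 0.34 with at least 10 cells, and C1QB was 0.026 at Leiden resolution 0.5, 0.0052 without called doublets, 0.048 with thinned cells and 0.067 with weights. With a library left out, C1QA ranged from −0.42 to 0.024 for oxygen and −0.44 to 0.0060 for day, C1QB from −0.28 to 0.075 and −0.21 to 0.14, and SERPING1 in pericyte-like cells from −0.10 to 0.64 for oxygen. Where that left 1 library in an arm, it was assumed to vary like the others. The causes were not tested. The rise of VTN in pericyte-like cells from P14 to P17 lost its call with cells thinned to 300 UMIs (adjusted p = 0.0974) and without a trend. Depth limits C3 and C4B, with 215 and 267 UMIs in all.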

Other observations

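The level of C1Q over all cells of a library is given here beside its share of phagocyte-like cells. C1QA, C1QB and C1QC together were at 3.86 per 10000 over all cells of the P14 NORM rod-depleted library, of which 2.34% were phagocyte-like, and at 2.66 in the P17 NORM rod-depleted library with 1.89%. The OIR rod-depleted libraries were at 3.42 (1.97% phagocyte-like cells) and 5.30 (3.87%) at P14 and 8.58 (5.62%) at P17. Whole-retina libraries were at 0.418 to 2.37, with 0.328 to 1.58% phagocyte-like cells, and both highest values were those of the P17 NORM library. The share of cells can be set by the dissociation and the rod depletion, and was not tested between conditions.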
